A study of Rattus norvegicus with 4 samples.

Results

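The genes described are the 3 nitric oxide synthases (Nos1, Nos2 and Nos3), 4 enzymes that make or recycle tetrahydrobiopterin (Gch1, Pts, Spr and Qdpr), and 3 enzymes that act on arginine or its methylated forms (Ddah1, Ddah2 and Arg2). They were taken by gene symbol from the deposited tables of ribosome footprint counts, and all 10 were found among 31038 rows. Footprints are the stretches of messenger RNA that a translating ribosome shields from nuclease. The cells were cultured rat myocardial cells labelled NRVM, an abbreviation commonly used for neonatal rat ventricular myocytes, although the labels' protocols derive them from embryonic myocardium. The si3m group was given an siRNA against eIF3m, a subunit of the translation initiation factor eIF3, and the siNT group a control siRNA, with 2 libraries each. All cells were grown in the same serum-containing medium and all lysates were treated with cycloheximide to hold ribosomes in place; no genotype, age, siRNA dose or time after transfection is stated in the labels. The series title links eIF3m to nitrative damage in the reperfused heart, and these genes control the production of nitric oxide, from which nitrating species form.

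Nitric oxide synthases turn arginine and oxygen into citrulline and nitric oxide. Nos1 is the neuronal, Nos2 the cytokine-inducible and Nos3 the endothelial form, and heart muscle cells are known to use more than one of them. The enzymes need tetrahydrobiopterin, a cofactor made from GTP, and when it is short they release superoxide instead. Asymmetric dimethylarginine, a breakdown product of methylated proteins, inhibits them, and arginases compete with them for arginine.

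Total counts were 8687598 and 6726969 in si3m libraries 1 and 2, and 3924434 and 3835750 in siNT libraries 1 and 2, so depth differed with the group. Most counts above 0 were even numbers (94.9% to 97.3% in a library), as if a fragment were mostly counted as 2 reads. A count of 0 therefore allowed up to 3 fragments, or 6 deposited counts, called the counting floor below. The floor stood at 0.707 and 0.928 CPM in si3m and at 1.49 and 1.52 CPM in siNT, where CPM is the count scaled to a common library size by TMM, a correction for differences in library composition. It covers counting error only, since reads were counted without molecular identifiers. Eif3m itself was lower in si3m, at 138 and 191 CPM, against 532 and 451 CPM in siNT. Of 16 cardiomyocyte markers, 8 were at or under the floor in each library, among them Nppa, Tnni3 and Myl7 with 0 counts throughout. Of the 4 tested, Tnnt2 rose (log2 1.25), whereas Pln and Ttn fell (log2 -1.56 and -0.64). Tnnc1, at 71.2 and 77.3 CPM in si3m and 55.8 and 68.1 CPM in siNT, did not pass the test described below. The list summed to 122 and 139 CPM in si3m and 131 and 137 CPM in siNT, a sum that covers changes in both directions. The 12 fibroblast markers summed to 13493 and 13301 CPM in si3m and 8077 and 8042 CPM in siNT, and all 9 that could be tested rose. In such bulk samples fewer cells of a type and less RNA per cell cannot be told apart. What part these marker differences have in the results below was not tested. The labels do not say whether the libraries of a group are from different cultures, and every p-value therefore reflects only how far these libraries differ, which may be technical variation.

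Of the 10 genes, Spr was the only one that changed past the threshold, and it rose in si3m. Ddah2 had a fold change of similar size that did not pass, while Gch1, Pts, Qdpr, Ddah1 and Arg2 gave smaller differences that did not pass. Counts of the nitric oxide synthases were at or under the counting floor in every library. For Nos1 and Nos3, at 0 counts, the floor limits the footprint level but does not show that they are absent. Nos2 had 6 counts in each siNT library, and there the floor does not limit its level. The 3 synthases did not have enough counts to be tested, leaving 7 genes. Across all 12672 rows tested with edgeR's quasi-likelihood test at a Benjamini-Hochberg adjusted p of 0.05, 27.8% changed (14.0% higher and 13.9% lower in si3m), beside 1 higher and 0 lower of these 7. At an unadjusted p of 0.05 in edgeR 2 were higher and 0 lower, and DESeq2 called 1 higher and 0 lower. The median log2 fold change was 0.26 over the 7 genes and 0.02 over all rows tested.

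**Figure D1:**
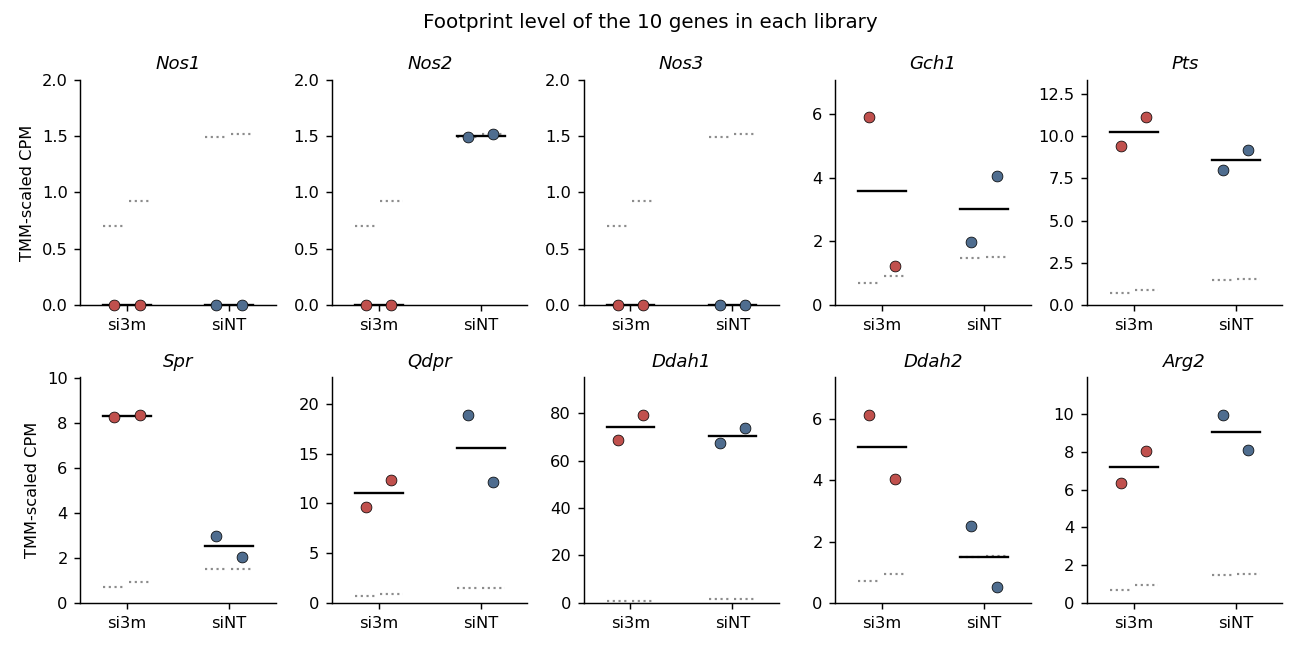
TMM-scaled CPM (y axis, from 0, a separate scale for each gene) of the 10 genes in the si3m and siNT libraries; points are libraries, black lines are means of 2 libraries and dotted grey lines mark the counting floor of each library (6 counts). Spr lies near 8 CPM in both si3m libraries and under 3 CPM in both siNT libraries, whereas Nos1 and Nos3 lie at 0 and Nos2 reaches no more than the floor.

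Nos1 had 0 counts in both si3m and both siNT libraries. Nos3 also had 0 counts in each of the 4 libraries. For both genes the floor limits the level to less than 0.707 to 1.52 CPM, depending on the library, and no fold change can be given. In the GRCr8 annotation Nos3 overlaps Atg9b, which has its own row in the tables, and how the counting treated reads in such overlaps is not given in the sources used here.

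Nos2 had 0 and 0 counts in si3m, against 6 and 6 counts in siNT. Both groups were at or under the floor, so no fold change is given, although the 2 groups did not overlap and the si3m libraries were the deeper ones. Fitted with no low-count filter, Nos2 had an unadjusted p of 0.0195 and an adjusted p of 0.0891 and did not pass. That setting can give far smaller p-values from the same libraries. For Eif3m the unadjusted edgeR p was 3.44e-10 in the reported fit and 1.23e-129 with no filter. Nos2 overlaps the long non-coding RNA LOC106736471, which also has a row of its own.

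Nos3 and Nos2 are best known in endothelial cells and macrophages, and most markers of these cell types had too few counts to be tested. Of 10 endothelial markers, Cdh5 and Emcn had 0 counts in each library. Pecam1 had 0 and 0 counts in si3m and 0 and 2 counts in siNT. The list summed to 86.4 and 89.7 CPM in si3m and 67.2 and 68.1 CPM in siNT. Most of that was Flt1, at 66.2 and 65.9 CPM in si3m and 57.2 and 56.4 CPM in siNT. Eng, an endothelial marker that fibroblasts also express, was at 16.5 and 19.5 CPM in si3m and 6.47 and 5.59 CPM in siNT and rose (log2 1.57, adjusted p = 7.00e-04), and Vwf lay above the floor in all 4 libraries without passing. Of 9 macrophage markers, 6 were at or under the floor in every library, and Aif1 had 0 counts throughout. The list summed to 15.8 and 16.7 CPM in si3m and 31.4 and 35.6 CPM in siNT. Most of that was Cd14, at 14.4 and 14.8 CPM in si3m and 21.4 and 22.9 CPM in siNT. Cd14 did not pass (edgeR adjusted p = 0.0612). Lyz2 and Mrc1 had counts in si3m alone, under the floor. Itgam had counts in siNT alone (2 and 4), also under the floor. Cd68 was at 0.236 and 0.309 CPM in si3m and 0.996 and 1.02 CPM in siNT. Csf1r was at 0.471 and 0.619 CPM in si3m and 1.49 and 2.03 CPM in siNT. Counts of these genes were too low to be tested. Adgre1, a macrophage surface receptor, had 4 and 0 counts in si3m and 24 and 34 counts in siNT. It passed and was lower in si3m (log2 -4.69, SE 0.81, edgeR adjusted p = 4.09e-04), with both si3m counts under the floor. Whether these markers bear on the counts of Nos2 was not tested.

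Among the enzymes of tetrahydrobiopterin, Spr rose and the other 3 did not pass. Gch1, GTP cyclohydrolase 1, carries out the first and rate-limiting step. Pts forms the intermediate 6-pyruvoyl-tetrahydropterin, Spr (sepiapterin reductase) completes the cofactor, and Qdpr (quinoid dihydropteridine reductase) regenerates it after use.

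Spr had deposited counts of 70 and 54 in si3m, against 12 and 8 in siNT, that is 8.24 and 8.35 CPM against 2.99 and 2.03 CPM. Both si3m libraries lay above both siNT libraries, and the siNT counts stood only just above the floor of 6. The mean was 8.30 ± 0.0776 CPM in si3m and 2.51 ± 0.675 CPM in siNT (SD, n = 2 each). The log2 fold change was 1.71 (SE 0.44, 3.28-fold), with an edgeR adjusted p of 0.00791. Pooled over libraries, 62 fragments in si3m stood against 10 in siNT, a depth-corrected ratio of 3.30 with an exact 95% interval of 1.68 to 7.21 from counting error alone. Without si3m replicate 1 the fold change was nearly the same (log2 1.73) and the adjusted p was 0.0520.

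Gch1 had counts of 50 and 8 in si3m and 8 and 16 in siNT, equal to 5.89 and 1.24 CPM in si3m and 1.99 and 4.06 CPM in siNT. The si3m libraries lay on either side of both siNT libraries. Its log2 fold change was 0.27 (SE 0.68, adjusted p = 0.807), and the sign turned without si3m replicate 1 (log2 -1.26, adjusted p = 0.553) and without siNT replicate 1 (log2 -0.14, adjusted p = 0.897). The counting interval of the ratio was 0.636 to 2.77, and it leaves out the spread between the si3m libraries.

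Pts had counts of 80 and 72 in si3m and 32 and 36 in siNT, equal to 9.42 and 11.1 CPM in si3m and 7.96 and 9.15 CPM in siNT. The groups did not overlap, but the gap between them was smaller than the spread within either group. The log2 fold change of 0.26 (SE 0.31, adjusted p = 0.579) did not pass, and the counting interval of the ratio ran from 0.784 to 1.84.

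Qdpr had counts of 82 and 80 in si3m and 76 and 48 in siNT, equal to 9.66 and 12.4 CPM in si3m and 18.9 and 12.2 CPM in siNT. The higher si3m library was level with the lower siNT library. Pooled fragments gave a ratio of 0.695 with a counting interval of 0.493 to 0.983, which leaves out the spread between the siNT libraries. Its log2 fold change of -0.51 (SE 0.29, adjusted p = 0.218) did not pass; without siNT replicate 2 it was -0.78 and passed (adjusted p = 0.0333), whereas without siNT replicate 1 it was -0.15 (adjusted p = 0.787).

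**Figure D2:**
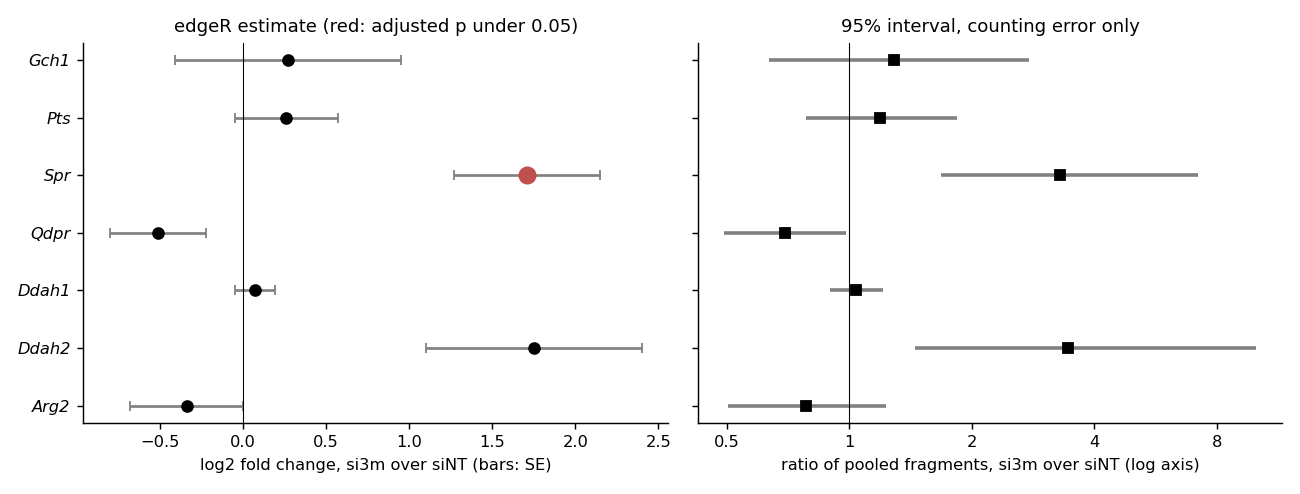
Left, edgeR log2 fold change of si3m over siNT (x axis) with its SE for the 7 genes tested, Spr in red as the gene past an adjusted p of 0.05; right, ratio of pooled fragments on a log axis with exact 95% intervals for counting error only. Spr and Ddah2 lie at log2 1.71 and 1.75, with the wider error for Ddah2, and Ddah1 lies at 0.07 with the narrowest interval.

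The enzymes acting on arginine or its methylated forms did not pass the test. Ddah1 and Ddah2 belong to the dimethylarginine dimethylaminohydrolase family, in which Ddah1 is the established enzyme that clears asymmetric dimethylarginine and the activity of Ddah2 is debated. Arg2 is the mitochondrial arginase, which splits arginine into ornithine and urea.

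Ddah2 had counts of 52 and 26 in si3m and 10 and 2 in siNT, equal to 6.12 and 4.02 CPM in si3m and 2.49 and 0.508 CPM in siNT. The groups did not overlap, and the count of 2 in siNT replicate 2 was under the floor. The mean was 5.07 ± 1.49 CPM in si3m and 1.5 ± 1.40 CPM in siNT (SD, n = 2 each), and the log2 fold change of 1.75 (SE 0.65) had an adjusted p of 0.0580. Pooled fragments were 39 in si3m and 6 in siNT, a ratio of 3.46 with a counting interval of 1.45 to 9.99. The fold change passed without siNT replicate 1 (log2 3.29, adjusted p = 0.00204) and fell short without siNT replicate 2 (log2 1.04, adjusted p = 0.223). It also passed on fragments (adjusted p = 0.0332) and with no low-count filter (adjusted p = 0.0116), the more liberal setting described for Nos2, so the call rests on the setting.

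Ddah1 had the most counts of the 10 genes, 584 and 512 in si3m and 270 and 290 in siNT. Its level was 68.8 and 79.2 CPM in si3m and 67.2 and 73.7 CPM in siNT, and the groups overlapped. The mean of 74.0 ± 7.37 CPM in si3m and of 70.4 ± 4.58 CPM in siNT (SD, n = 2 each) gave a log2 fold change of 0.07 (SE 0.12, adjusted p = 0.729). The sign turned with total count scaling (log2 -0.01) and without si3m replicate 2 (log2 -0.02). The counting interval of the ratio was 0.900 to 1.21.

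Arg2 had counts of 54 and 52 in si3m and 40 and 32 in siNT, equal to 6.36 and 8.04 CPM in si3m and 9.96 and 8.13 CPM in siNT. The groups did not overlap, with the nearest libraries of each group almost level. The log2 fold change of -0.34 (SE 0.34, adjusted p = 0.512) did not pass, and the counting interval was 0.503 to 1.23. Arg2 overlaps the protein-coding gene Vti1b in the GRCr8 annotation. In all, 4 of the 7 genes tested had groups that did not overlap, of which 3 were higher in si3m, beside 63.9% of all rows tested (32.6% higher and 31.3% lower in si3m).

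The plot of fold changes by setting shows how far each of these values depended on 1 library or on a choice of scaling. Spr kept its direction under all 13 alternatives and passed in 12 of them. Pts stayed between 0.15 and 0.39 and Arg2 between -0.50 and -0.16 on the log2 scale, without passing under any of the 13.

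**Figure D3:**
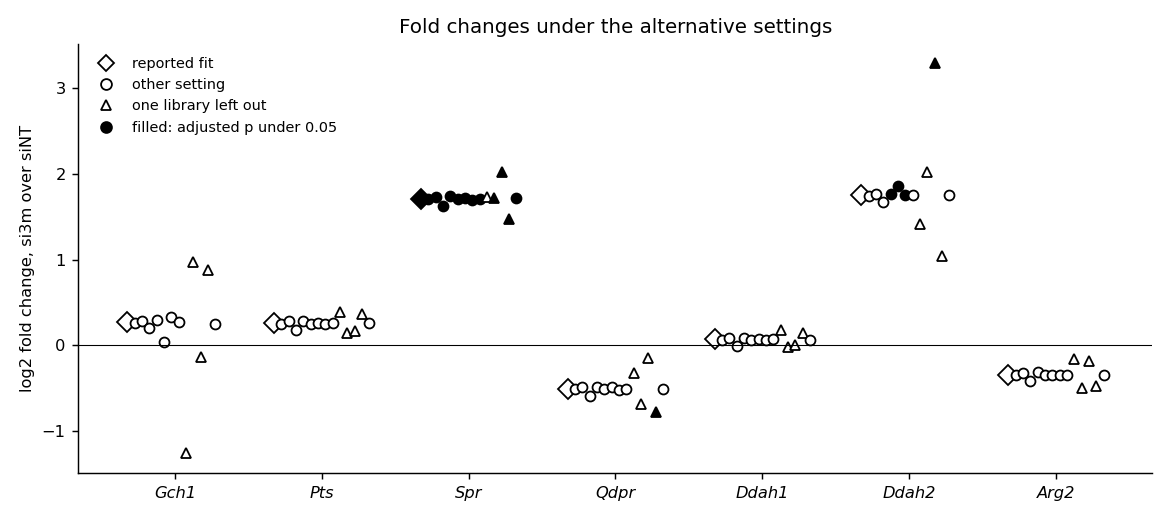
Log2 fold change of si3m over siNT (y axis) for the 7 genes tested, under the reported fit (diamonds), other settings (circles) and fits with 1 library left out (triangles); filled symbols have an adjusted p under 0.05. Spr stays between 1.47 and 2.02, whereas Gch1 runs from -1.26 to 0.97 on either side of 0.

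The pattern of Spr over the 4 libraries was compared with that of 9922 other rows, by Euclidean distance of centred log2 CPM. The nearest were Mtg1, a GTPase of the mitochondrial ribosome (distance 0.169, log2 1.64, SE 0.43), Taf10, a subunit of the general transcription factor TFIID (distance 0.187, log2 1.52, SE 0.29), and Cacnb3, a calcium channel subunit (distance 0.192, log2 1.79, SE 0.19). With 4 libraries such likeness describes little more than the size of the rise.

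Other genes of pterin metabolism included 2 that rose and 0 that fell among 5 tested of 11, with a median log2 fold change of 0.36. At an unadjusted p of 0.05 in edgeR 3 were higher and 0 lower, and DESeq2 called 2 higher and 0 lower. For this and the lists below, the share over all rows tested was 14.0% higher and 13.9% lower, with a median of 0.02. Pcbd2, a member of the pterin-4a-carbinolamine dehydratase family, which helps recycle the cofactor, had counts of 122 and 72 in si3m and 8 and 14 in siNT. Its level was 12.8 ± 2.28 CPM in si3m and 2.77 ± 1.11 CPM in siNT (SD, n = 2 each), and it rose 4.59-fold (log2 2.2, SE 0.39, adjusted p = 5.45e-04), with all 13 alternatives past the threshold. Akr1b1, aldose reductase, which can also reduce pterin intermediates, rose 1.29-fold (log2 0.36, SE 0.060), at 275 and 294 CPM in si3m and 223 and 219 CPM in siNT.

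Cbr1, a carbonyl reductase, had 60 and 42 counts in si3m and 46 and 36 counts in siNT, with a log2 value of -0.60 (SE 0.33), and did not pass. Gchfr, the feedback regulator of Gch1, had 8 and 2 counts in si3m and 2 and 2 counts in siNT, and Pcbd1 at most 4 counts in a library. Th, tyrosine hydroxylase, which uses the cofactor to make catecholamines, had 0 counts in each library.

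Genes of arginine supply and use went both ways, with 5 of 15 tested higher and 2 lower, and a median log2 fold change of 0.19. The 2 that fell were transporters of cationic amino acids. Slc7a2, the inducible transporter CAT2, had 0 and 0 counts in si3m, against 46 and 32 counts in siNT, although si3m was sequenced more deeply. Its level was 11.4 and 8.13 CPM in siNT, and with 6 counts allowed in each si3m library it was at least 12.0-fold lower in si3m (edgeR adjusted p = 1.44e-05). It stayed past the threshold under the 12 alternatives that could test it.

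Slc7a1, the transporter CAT1, which many cell types express, fell 1.46-fold, with 309 and 306 CPM in si3m and 434 and 466 CPM in siNT. Its log2 fold change was -0.55 (SE 0.057, adjusted p = 2.94e-06), and all 13 alternatives passed. Slc7a3, another such transporter, had 16 and 0 counts in si3m and 0 and 2 counts in siNT and was not tested. Slc7a2 is known to be induced in macrophages along with Nos2. The macrophage markers given above were lower in si3m in sum. Most of that sum was Cd14, which did not pass, while Adgre1 passed and was lower in si3m (log2 -4.69). The part of these markers in the fall of Slc7a2 was not tested.

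Oat, ornithine aminotransferase, which links ornithine to proline and glutamate, rose 1.47-fold, at 97.3 ± 7.64 CPM in si3m and 66.2 ± 4.91 CPM in siNT (SD, n = 2 each; log2 0.56, SE 0.11). Oaz1, antizyme 1, an inhibitor of ornithine decarboxylase, rose 1.53-fold (log2 0.62, SE 0.10). Ornithine decarboxylase itself, Odc1, which starts polyamine synthesis, did not pass (log2 0.19, SE 0.10), nor did its antizyme inhibitor Azin1 (log2 0.05, SE 0.059). Ass1, which with Asl rebuilds arginine from citrulline, had 16 and 10 counts in si3m and 8 and 18 counts in siNT. Its log2 fold change of -0.92 (SE 0.65) did not pass. Arg1, the cytosolic arginase, had 18 and 10 counts in si3m and 6 and 6 counts in siNT. Scaled for depth, Arg1 was at 2.12 and 1.55 CPM in si3m and 1.49 and 1.52 CPM in siNT, and it was not tested.

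**Figure D4:**
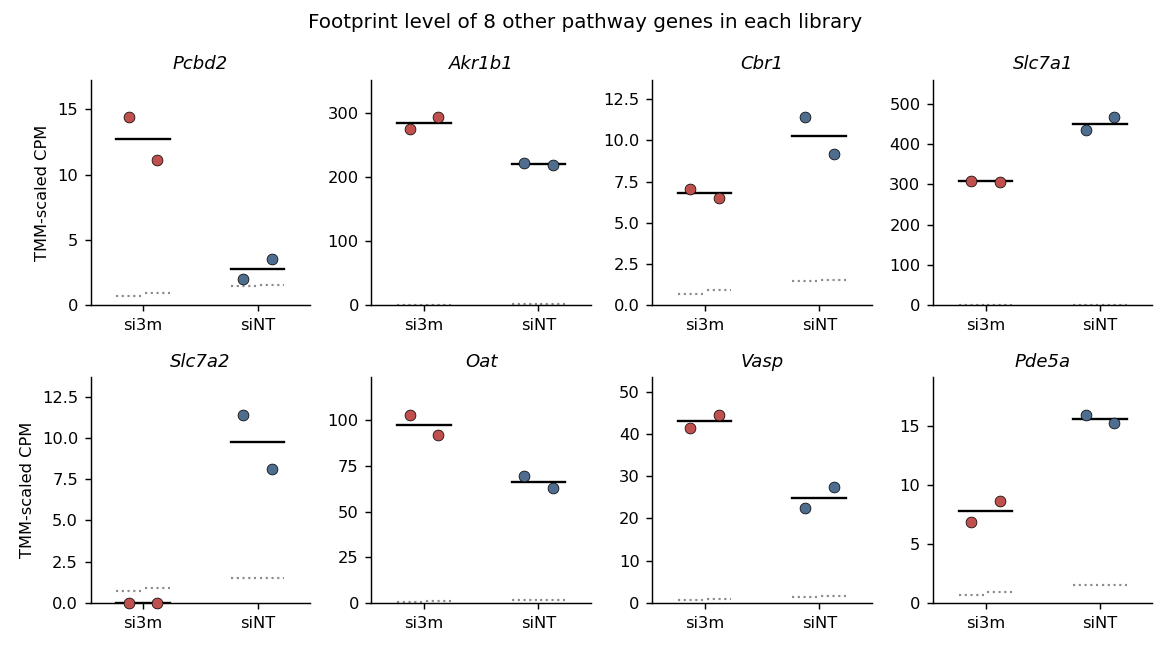
TMM-scaled CPM (y axis, from 0, a separate scale for each gene) of 8 further genes of pterin metabolism, arginine transport and use and cGMP signalling; points are libraries, black lines are means of 2 libraries and dotted grey lines mark the counting floor. Slc7a2 lies at 0 in both si3m libraries and at 11.4 and 8.13 CPM in siNT. The groups of each gene shown do not overlap, as in 63.9% of all rows tested. Genes named in the text whose groups overlap, such as Azin1 and Prkg1, are not shown.

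Protein arginine methyltransferases, the source of methylated arginines, counted 1 of 8 tested higher and 0 lower, with a median log2 fold change of 0.22; at an unadjusted p of 0.05 in edgeR 4 were higher and 0 lower, and in DESeq2 1 was higher and 0 lower. Prmt9 was the gene that rose (log2 0.71, SE 0.24, adjusted p = 0.0340); it overlaps Tmem184c, and it did not pass with total count scaling, without si3m replicate 1 or without siNT replicate 2 (adjusted p up to 0.203). Prmt5 (log2 0.04, SE 0.14) and Prmt3 (log2 0.31, SE 0.14) did not pass. Prmt1, which makes most asymmetric dimethylarginine and was looked at after its value was seen, had 292 and 288 counts in si3m and 124 and 90 counts in siNT (log2 0.55, adjusted p = 0.0530).

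Partners and regulators of the synthases had 3 of 13 tested higher and 3 lower, with a median log2 fold change of 0.00. Cav1, which holds Nos3 inactive in caveolae, was at 470 and 448 CPM in si3m and 238 and 236 CPM in siNT, and it rose. Dynll1, a dynein light chain that binds Nos1, rose 2.07-fold (log2 1.05, SE 0.12), at 106 and 104 CPM in si3m and 55.8 and 45.7 CPM in siNT. The chaperones Hsp90aa1 and Hsp90ab1, which assist the synthases, fell by 0.48 and 0.50 on the log2 scale. Akt1, a kinase that activates Nos3 (log2 -0.07, SE 0.13), did not pass. Dynll1 and the Hsp90 genes belong to families with near-identical copies, with which short reads can be shared.

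Downstream of nitric oxide, the receptor was as scarce as the synthases. Gucy1b1, the obligate subunit of soluble guanylate cyclase, had 0 counts in each library under its older symbol Gucy1b3, and Gucy1a1 (as Gucy1a3) had 2 and 0 counts in si3m and 0 and 2 counts in siNT. Of 14 genes of cGMP signalling 5 could be tested, with 1 higher, 2 lower and a median log2 fold change of 0.03.

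Pde5a, the phosphodiesterase that breaks down cGMP, fell 2.02-fold, with 58 and 56 counts in si3m and 64 and 60 counts in the shallower siNT libraries (log2 -1.02, SE 0.29, adjusted p = 0.0146). Ppp1r12a, a subunit of myosin phosphatase regulated by cGMP, fell 1.26-fold (log2 -0.33, SE 0.083). Both calls were lost without si3m replicate 1 (adjusted p up to 0.138 for Pde5a and 0.105 for Ppp1r12a). Vasp, an actin regulator phosphorylated by the cGMP-dependent kinase, rose 1.72-fold (log2 0.79, SE 0.18), at 41.5 and 44.5 CPM in si3m and 22.4 and 27.4 CPM in siNT. That kinase, Prkg1 (log2 0.03, SE 0.22), and its substrate Irag1 (as Mrvi1; log2 0.29, SE 0.15) did not pass.

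Genes that remove nitric oxide or nitrosothiols had 2 of 6 tested higher and 0 lower, with a median log2 fold change of 0.15; at an unadjusted p of 0.05 in edgeR 4 were higher and 0 lower, and in DESeq2 1 was higher and 0 lower. Txn1, thioredoxin, which can denitrosylate proteins, was at 321 and 333 CPM in si3m and 134 and 138 CPM in siNT and rose. Akr1a1, an aldehyde reductase that acts on S-nitroso-coenzyme A, rose 1.12-fold (log2 0.17, SE 0.059, adjusted p = 0.0447), a call kept in 7 of 13 alternatives. Txnrd1, thioredoxin reductase (log2 0.08, SE 0.047), and Prdx5, a peroxiredoxin that reduces peroxynitrite (log2 0.14, SE 0.065), did not pass. The globins Cygb and Ngb, which can oxidize nitric oxide, had at most 2 counts in a library. Myoglobin (Mb), the muscle globin that does the same, had 2 and 38 counts in si3m and 0 and 0 counts in siNT, so nearly all came from 1 si3m library. Mb was not tested in the reported fit and passed with no low-count filter (adjusted p = 1.87e-04). That setting can give far smaller p-values, as described for Nos2.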

How the data were processed

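Ribosome footprints of 4 libraries were analysed from whole-number counts per gene that the authors deposited without normalization. The build rn6 and the tools featureCounts, HISAT2 2.2.1, Trimmomatic 0.40, DESeq2 and limma are listed in the submitters' processing notes. What each tool did, which annotation and strand setting were used and how multiply mapped reads were counted is not given in the sources used here. RNA-seq of these cells was not used here, so values are footprint abundance. All rows entered 1 fit (R 4.3.3, edgeR 4.0.16, a filterByExpr minimum count of 10, TMM, glmQLFit and glmQLFTest, two-sided, Benjamini-Hochberg over 12672 rows, threshold 0.05), without replicate number as a block, after a test on simulated data. The SE is the log2 fold change divided by the root of its F statistic. Ratios of pooled fragments (counts divided by 2, rounded up) carry exact Clopper-Pearson 95% intervals, and the floor is 6 counts in each library. Overlapping genes and older symbols come from RefSeq genes of GRCr8, which is not the build of the files. Other settings were DESeq2 1.42.0, its size factors within edgeR, total count and upper quartile scaling, no filter, at least 50 counts in 2 libraries, fragments, robust fitting, the replicate block and leaving out each library. From each related list the text names up to 4 tested genes with the smallest adjusted p past the threshold. It also names the 2 most abundant that did not pass. Other genes at the floor, Mb, Eng, Vwf, Tnnt2, Pln, Ttn, Tnnc1, Cd14, Adgre1, Csf1r, Prmt1, Ass1, Arg1 and Slc7a3 were added after their values were seen. The genes and lists were chosen with earlier results of these data known. The results of 2 genes that this rule named are not reported here.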

Additional observations from a re-analysis of the deposited data

How the results depend on the processing

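The number of the 10 genes called higher in si3m, 1 in the reported fit, was 2 with no low-count filter, with fragments and with the replicate block, and 0 to 2 when 1 library was left out. The number called lower, 0 in the reported fit, was 0 to 1 when 1 library was left out. Ddah2 passed with no filter (log2 1.77, adjusted p = 0.0116), with fragments (1.75, adjusted p = 0.0332) and with the replicate block (1.86, adjusted p = 0.0364), and ran from 1.04 to 3.29 with 1 library left out. The same fits gave 1.47 to 2.02 for Spr, -0.78 to -0.15 for Qdpr, -1.26 to 0.97 for Gch1 and -0.02 to 0.18 for Ddah1, which also stood at -0.01 with total count scaling. The cause was not tested. The stricter filter could not test Gch1, Ddah2 or Slc7a2. No shared effect of replicate number was seen: differences between numbers 1 and 2 correlated at -0.0179 between the groups over 9125 genes. This cannot show whether libraries of the same number were prepared together. With the replicate block 1851 rows rose and 1843 fell, and among the 10 genes it changed the call of Ddah2 alone. Over all rows the calls ran from 1292 to 2048 higher and from 1245 to 2217 lower, the split moving to 1428 higher and 2217 lower with total count scaling. Low counts left Nos1, Nos2 and Nos3 untested, and among the tested genes Gch1, Ddah2 and Spr had at most 16 counts in each siNT library. Counts for the related lists were recomputed under the same settings, a choice made after seeing the data. DESeq2 called 3 genes of arginine supply higher (reported 5), and the stricter filter 1 lower (reported 2), being unable to test Slc7a2. Methyltransferases, reported as 1 higher, had 0 with total count scaling, 2 with upper quartile scaling, no filter, the stricter filter, fragments, robust fitting and the replicate block, and 1 to 2 with 1 library left out. Genes that remove nitric oxide or nitrosothiols, reported as 2 higher, had 1 with DESeq2, its size factors or total count scaling and 4 with no filter. The 2 lower genes of cGMP signalling became 0 to 2 with 1 library left out.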
